A study of Rattus norvegicus with 12 samples.

Results

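Expression of 39 genes of purine, pyrimidine and one-carbon synthesis was read from RNA sequencing of the neonatal rat heart. Members were every row of the deposited table whose gene name was on this list, whatever their change, and all 39 symbols were found, in 40 of 32545 rows, since Hprt1 has 2 rows. The libraries came from myocardium of the LV- or RV-free wall of Sprague–Dawley (SD) rats at postnatal day 7 (P7), with 3 libraries in each of the groups sham LV, VO LV, sham RV and VO RV. The VO groups had undergone surgery at P1 that joined the abdominal aorta to the inferior vena cava by needle puncture, a fistula that returns arterial blood to the heart and so adds volume load to both ventricles, and the sham groups a sham operation at the same age. The labels name no genetic change or drug. The labels do not say whether libraries of a group came from separate rats, or whether an LV and an RV library with the same number came from the same rat, so the p-values measure only the spread between these samples, part of which may be technical. The free wall is a mixture of cell types, in which fewer cells of a type and less RNA per cell cannot be told apart.

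Cells build purine and pyrimidine nucleotides either from small molecules (de novo synthesis) or by recycling bases and nucleosides (salvage), and both routes draw on PRPP, an activated ribose phosphate. The purine ring is assembled on the ribose by enzymes that lead to IMP, the parent of AMP and GMP, whereas the pyrimidine ring is assembled first and then joined to the ribose. Folate-bound one-carbon units, largely taken from serine, supply carbons of the purine ring and the methyl group of thymidylate. Ribonucleotide reductase then converts ribonucleotides to the deoxynucleotides used in DNA replication, a demand that falls in the rodent heart after birth as cardiomyocytes leave the cell cycle. The question addressed here is whether these genes differed between LV and RV, or with VO, in a heart at that stage.

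Promoter sequences of the members were searched for letters that regulatory factors bind, and those of cell cycle genes were not counted apart. Of the 39 symbols, 33 had a promoter in the RefSeq set of the GRCr8 build (250 bases before to 50 after each start). Adssl1, Ak1, Rrm2, Mthfd1, Dhodh and Umps were not matched. The letters TTTCCCGC, TTTGGCGC or TTTCGCGC, the core of sites bound by the E2F factors that switch on S phase genes, were searched on both strands and found in 4 of 33 matched members (12.1%), namely Ppat, Hprt1, Tyms and Shmt1. They were in 1.72% of all 33469 promoters and in 3.27% of 10361 promoters of tested genes. CACGTG, an E-box of the kind bound by Myc, was in Atic, Adss and Shmt1 (9.09% of members, 6.42% of all promoters and 9.01% of those of tested genes). CCAAT was in 27.3% of members and 37.5% of all promoters, and TGATGCAA, of the kind bound by Atf4, was in 0 of 33 members and 0.795% of all promoters. The 250 bases upstream of 3 members are shown 5′ to 3′ in lower case, 2 with such letters and Rrm1 without, and capitals mark the E2F letters on either strand. They lie at chr9:120776084-120776333 on the minus strand for Tyms, chr10:45990342-45990591 on the minus strand for Shmt1 and chr1:166235654-166235903 on the plus strand for Rrm1.
Tyms: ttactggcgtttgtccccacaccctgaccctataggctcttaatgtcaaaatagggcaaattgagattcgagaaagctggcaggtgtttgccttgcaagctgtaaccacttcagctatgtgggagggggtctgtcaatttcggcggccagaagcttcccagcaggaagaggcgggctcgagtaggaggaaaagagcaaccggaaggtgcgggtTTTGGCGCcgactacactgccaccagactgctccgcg
Shmt1: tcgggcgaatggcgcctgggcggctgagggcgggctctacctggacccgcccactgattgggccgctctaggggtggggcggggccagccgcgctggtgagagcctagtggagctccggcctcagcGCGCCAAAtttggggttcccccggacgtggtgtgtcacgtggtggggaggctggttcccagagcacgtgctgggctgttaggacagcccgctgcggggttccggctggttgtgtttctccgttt
Rrm1: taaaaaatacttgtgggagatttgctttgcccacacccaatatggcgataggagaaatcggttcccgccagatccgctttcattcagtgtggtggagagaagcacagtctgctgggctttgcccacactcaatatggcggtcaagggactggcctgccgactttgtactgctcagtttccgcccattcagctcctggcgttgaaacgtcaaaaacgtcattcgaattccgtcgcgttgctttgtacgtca
The capitals lie 37 to 30 bases before the start of Tyms and 124 to 117 bases before that of Shmt1. In Ppat they occur 2 times on the other strand, 145 to 138 and 92 to 85 bases before the start. A match is a description of letters only, and no binding was measured.

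Depth was 14121713 to 16871371 gene reads in a library, and values are FPKM, fragments scaled for gene length and library size, so that levels of different genes can be compared per length. The library size that the values imply was 0.967 to 1.12 times the gene reads of the library. All 40 rows passed the filter for testing, a mean of at least 0.5 FPKM over the 12 libraries, and none was at 0 in any library. Sham LV replicate 2 and VO RV replicate 2 stood apart, with median correlations across genes to the other libraries of 0.9579 and 0.9638, against 0.9675 to 0.9735 for the remaining 10. The 5 atrial markers summed to 4559 FPKM in VO RV replicate 2, and to 212 to 1729 FPKM elsewhere. The mitochondrial share of reads ran from 14.4% in sham LV replicate 2 to 26.2% in sham LV replicate 1. Transcripts of 4 Y-linked genes summed to 62.1 to 64.2 FPKM in 2 of 3 sham LV and 2 of 3 sham RV libraries and to 56.0 FPKM in VO RV replicate 3, and to 0.034 FPKM or less in the other 7 libraries, which include all 3 of VO LV. Sham LV, sham RV and VO RV therefore each held libraries from different rats, which these transcripts cannot show for VO LV. The sexes implied by these transcripts were thus unevenly spread over the groups, and among the pairs of groups compared here most of all between VO LV and sham LV.

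Members spanned a wide range of levels. Their median was 17.1 FPKM over all libraries, against 7.98 FPKM for all tested genes, with 27 of 40 rows at 10 FPKM or more and 8 under 5 FPKM. The highest was Nme2 at 697 FPKM, a nucleoside diphosphate kinase that passes phosphate from ATP to other nucleotides, followed by Aprt at 187 FPKM, Adssl1 at 133 FPKM and Dut at 80.9 FPKM. The lowest were the longer Hprt1 row (0.591 FPKM), Ak4 (1.46 FPKM) and Dhodh (3.18 FPKM). The heat map of members by library shows each gene against its own mean.

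**Figure D1:**
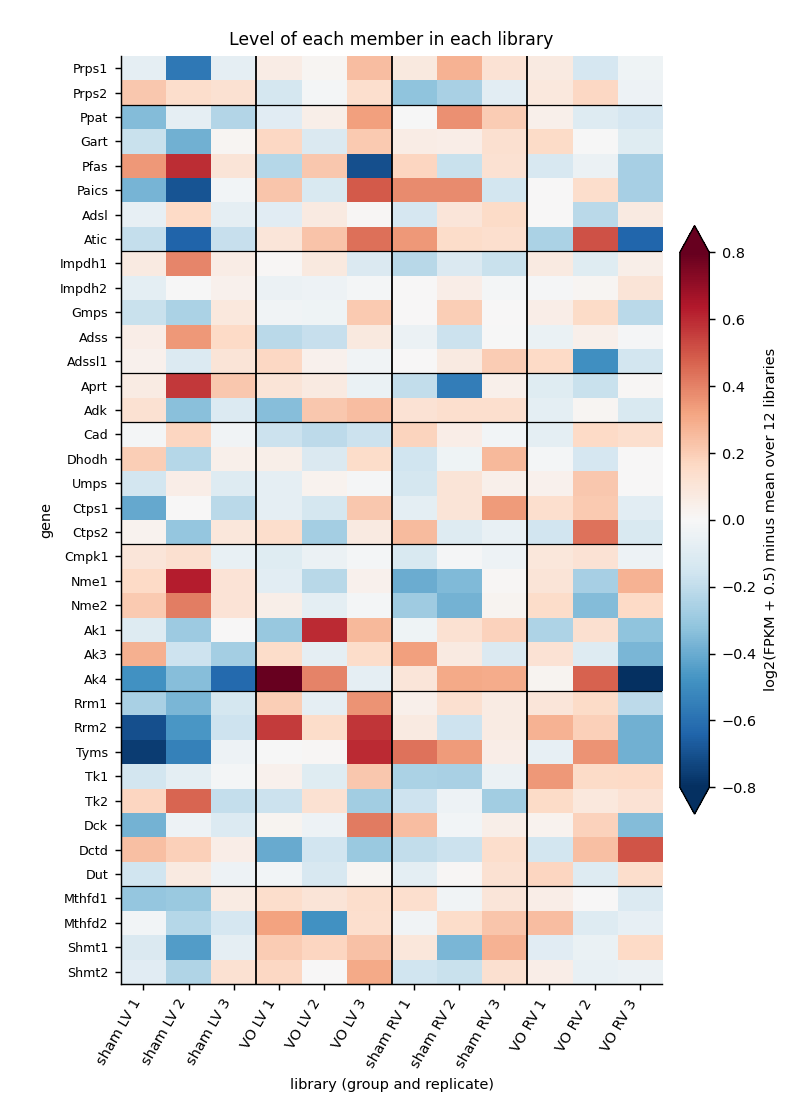
Log2(FPKM + 0.5) of each member minus its mean over the 12 libraries (color, red higher and blue lower, saturated at 0.8), for 38 members without Hprt1, with libraries in columns by group and genes in rows by role. Rrm2 and Rrm1 are blue in sham LV and mostly red in VO LV, Tyms is blue in sham LV replicates 1 and 2 and red in VO LV replicate 3, and sham LV replicate 2 differs from sham LV replicates 1 and 3 at many genes.

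PRPP synthesis rests on Prps1 and Prps2, paralogs that make PRPP from ribose 5-phosphate. Prps1 was at 12.3, 8.56 and 12.3 FPKM in sham LV, 13.5, 13.1 and 15.5 FPKM in VO LV, 13.7, 15.8 and 14.1 FPKM in sham RV and 13.6, 11.8 and 12.7 FPKM in VO RV. Prps2 was at 5.803, 5.49 and 5.39 FPKM in sham LV, 4.42, 4.87 and 5.46 FPKM in VO LV, 3.84, 4.03 and 4.61 FPKM in sham RV and 5.24, 5.57 and 4.76 FPKM in VO RV. The 3 libraries of Prps1 in sham LV all lay below those of the other 3 groups except VO RV, whereas Prps2 was lowest in sham RV.

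Of the 6 genes of the purine ring, Ppat commits PRPP to the pathway, and Gart, Pfas, Paics, Adsl and Atic carry it on to IMP. Ppat was at 15.8, 19.2 and 17.1 FPKM in sham LV, 18.9, 20.9 and 25.5 FPKM in VO LV, 20.2, 26.2 and 23.3 FPKM in sham RV and 20.8, 18.7 and 18.3 FPKM in VO RV. Pfas was at 16.5, 19.5 and 13.8 FPKM in sham LV, 10.9, 14.96 and 7.701 FPKM in VO LV, 14.5, 11.3 and 14.00 FPKM in sham RV and 11.7, 12.4 and 10.6 FPKM in VO RV. Paics, the lowest of the 6 on average, was at 6.79, 5.34 and 8.78 FPKM in sham LV, 10.5, 8.16 and 12.7 FPKM in VO LV, 11.7, 11.7 and 8.02 FPKM in sham RV and 8.92, 9.88 and 7.34 FPKM in VO RV. On average sham LV was the lowest group for Ppat and Paics and the highest for Pfas. Adsl, the highest of the 6 and a gene that also acts in AMP synthesis, was at 35.9, 42.1 and 35.9 FPKM in sham LV, 35.4, 39.6 and 37.97 FPKM in VO LV, 34.3, 40.4 and 42.03 FPKM in sham RV and 37.8, 32.4 and 39.7 FPKM in VO RV. Its groups overlapped in every comparison. Gart and Atic had group means of 10.5 to 12.8 FPKM and 8.497 to 12.98 FPKM. In the table's coordinates, whose build is not stated in the sources used here, Ppat (ENSRNOG00000002128, chromosome 14, 33580541 to 33614919, plus strand) and Paics (ENSRNOG00000002101, chromosome 14, 33563886 to 33580566, minus strand) run head to head and overlap by 26 bases. Since the strand setting of the counting is not stated either, reads in that overlap cannot be told apart. Adsl shares 4394 bases with LOC100362980 on the same strand, so its reads may be split.

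From IMP, Impdh1, Impdh2 and Gmps lead to GMP, and Adss and the muscle paralog Adssl1 lead to AMP. Adssl1 was at 135, 122 and 142 FPKM in sham LV, 147, 135 and 129 FPKM in VO LV, 132, 138 and 152 FPKM in sham RV and 147, 93.5 and 119 FPKM in VO RV. Impdh1 was at 30.4, 37.8 and 30.1 FPKM in sham LV, 29.02, 30.5 and 26.6 FPKM in VO LV, 24.7, 26.5 and 25.5 FPKM in sham RV and 30.3, 26.8 and 29.8 FPKM in VO RV. Adss, the lowest of the 5, was at 17.1, 21.1 and 18.5 FPKM in sham LV, 14.1, 14.4 and 17.4 FPKM in VO LV, 15.9, 14.6 and 16.4 FPKM in sham RV and 15.8, 16.9 and 16.3 FPKM in VO RV. Impdh1 and Adss were higher in every sham LV library than in any sham RV library. Impdh2 had group means of 57.5 to 60.5 FPKM and Gmps of 16.4 to 18.7 FPKM.

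In purine salvage, Aprt recycles adenine, Adk phosphorylates adenosine and Hprt1 recycles hypoxanthine and guanine. Aprt was at 193, 274 and 215 FPKM in sham LV, 199, 194 and 178 FPKM in VO LV, 161, 126 and 189.9 FPKM in sham RV and 173, 163 and 185 FPKM in VO RV. All 3 sham LV libraries lay above all 3 sham RV libraries, with VO LV and VO RV between their means. Adk had group means of 31.1 to 36.4 FPKM.

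Hprt1, a gene often used as a housekeeping reference, could not be measured reliably. Its row of 657 bases (ENSRNOG00000048561, chromosome X, 158197149 to 158228749) was at 0.9899, 66.5 and 48.6 FPKM in sham LV, 0.282, 27.7 and 0.803 FPKM in VO LV, 0.369, 0.429 and 0.8195 FPKM in sham RV and 1.12, 36.2 and 1.204 FPKM in VO RV. Its row of 1223 bases (ENSRNOG00000031367, chromosome X, 158623240 to 158655198) was at 0.213, 0.454 and 0.472 FPKM in sham LV, 0.556, 0.542 and 0.9103 FPKM in VO LV, 0.446, 0.403 and 1.98 FPKM in sham RV and 0.384, 0.228 and 0.497 FPKM in VO RV. The shorter row therefore lay at 27.7 to 66.5 FPKM in 4 libraries and at 0.282 to 1.204 FPKM in the other 8, and both rows together reached at most 2.80 FPKM in those 8. The 4 high libraries were sham LV replicates 2 and 3, VO LV replicate 2 and VO RV replicate 2, so that 3 of the 4 groups held high and low libraries. They do not follow the Y-linked transcripts, which were present in sham LV replicate 2 and at 0 in the other 3. Rows with the same gene name can divide reads between them, and both rows summed still parted the same 4 libraries from the other 8. The cause was not tested, and the levels of Hprt1 are given as uncertain. Its fitted log2 fold changes have 95% intervals of −6.15 to 1.22 in the LV and −1.49 to 5.88 in the RV for the shorter row, and are not read further.

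**Figure D2:**
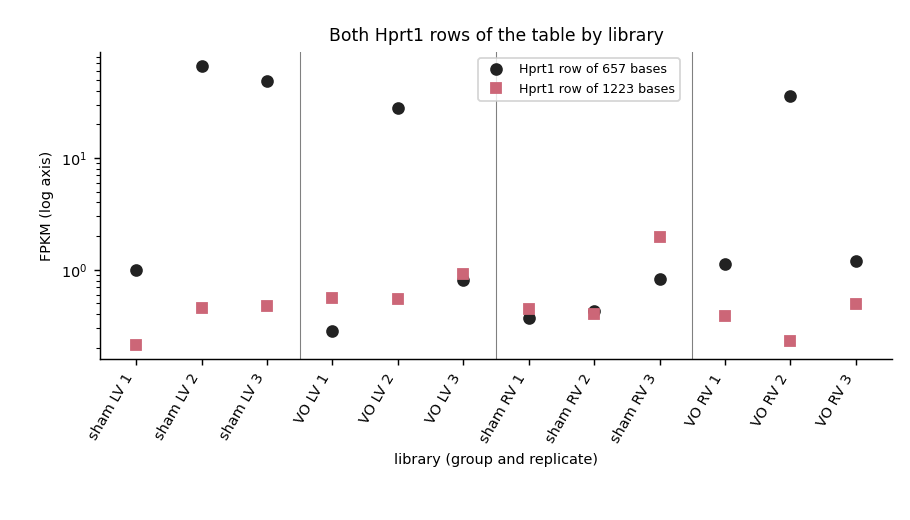
FPKM (log axis) of both Hprt1 rows of the table in each of the 12 libraries, ordered by group. The row of 657 bases is at 27.7 to 66.5 FPKM in 4 libraries and at or under 1.204 FPKM in the other 8, and the row of 1223 bases stays at or under 1.98 FPKM throughout.

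The pyrimidine ring is built by Cad, a fused enzyme of the first steps, then by Dhodh and Umps, and Ctps1 and Ctps2 turn UTP into CTP. Cad was at 6.47, 7.45 and 6.402 FPKM in sham LV, 5.75, 5.59 and 5.75 FPKM in VO LV, 7.47, 6.797 and 6.45 FPKM in sham RV and 6.18, 7.37 and 7.25 FPKM in VO RV. Its 3 VO LV libraries were the lowest of the 12. Ctps1, the highest of the 5, was at 17.3, 23.2 and 19.8 FPKM in sham LV, 21.9, 20.9 and 26.96 FPKM in VO LV, 21.8, 24.8 and 29.4 FPKM in sham RV and 25.5, 26.8 and 21.8 FPKM in VO RV. Dhodh, the lowest, was at 3.69, 2.63 and 3.26 FPKM in sham LV, 3.29, 2.87 and 3.55 FPKM in VO LV, 2.77, 3.07 and 3.88 FPKM in sham RV and 3.12, 2.84 and 3.18 FPKM in VO RV. Neither parted VO from sham in either ventricle. Umps and Ctps2 had group means of 18.3 to 20.4 FPKM and 7.42 to 8.19 FPKM.

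Among the nucleotide kinases, Nme1 and Nme2 serve all nucleotides, Ak1, Ak3 and Ak4 exchange phosphate among adenine and guanine nucleotides in the cytosol or mitochondria, and Cmpk1 serves CMP and UMP. Nme2 was at 797, 914 and 743 FPKM in sham LV, 710.1, 652 and 682 FPKM in VO LV, 565, 529 and 700.2 FPKM in sham RV and 764, 542 and 769 FPKM in VO RV. Ak1 was at 33.02, 28.98 and 35.6 FPKM in sham LV, 28.7, 53.98 and 42.6 FPKM in VO LV, 34.6, 38.7 and 40.3 FPKM in sham RV and 29.8, 38.8 and 28.3 FPKM in VO RV. Ak4, counted on only 8 to 47 reads per library, was at 0.825, 0.963 and 0.704 FPKM in sham LV, 2.84, 1.94 and 1.26 FPKM in VO LV, 1.48, 1.79 and 1.77 FPKM in sham RV and 1.38, 2.07 and 0.475 FPKM in VO RV. Every VO LV library exceeded every sham LV library for Ak4, whereas VO RV held the lowest of the 12 values as well as one above all sham RV libraries. Nme1, Cmpk1 and Ak3 had group means of 26.9 to 39.8 FPKM, 39.0 to 42.3 FPKM and 53.6 to 62.0 FPKM. Nme1 and Nme2 lie on chromosome 10, 3435 bases apart on the same strand, and are close in sequence.

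The supply of deoxynucleotides runs through Rrm1 and Rrm2, the large and small subunits of ribonucleotide reductase, Tyms, which makes thymidylate, the salvage kinases Tk1, Tk2 and Dck, and Dctd and Dut, which feed dUMP to Tyms. Rrm2 (ENSRNOG00000054286, chromosome 6, 43884678 to 43889515) was at 10.3, 12.3 and 15.2 FPKM in sham LV, 25.5, 19.00 and 25.6 FPKM in VO LV, 18.01, 15.2 and 17.9 FPKM in sham RV and 20.9, 19.6 and 12.97 FPKM in VO RV. Rrm1 (ENSRNOG00000045752, chromosome 1, 167538387 to 167562687) was at 28.9, 26.7 and 31.3 FPKM in sham LV, 39.7, 32.9 and 44.5 FPKM in VO LV, 35.6, 37.8 and 36.1 FPKM in sham RV and 37.1, 38.5 and 29.9 FPKM in VO RV. Tyms was at 7.01, 8.26 and 11.8 FPKM in sham LV, 12.2, 12.3 and 18.8 FPKM in VO LV, 16.6, 15.6 and 12.7 FPKM in sham RV and 11.6, 15.8 and 9.22 FPKM in VO RV. For these 3 genes every VO LV library exceeded every sham LV library, and the sham RV libraries lay in the range of VO LV or, for Rrm2, below it. Dctd was at 7.08, 6.84 and 6.15 FPKM in sham LV, 4.35, 5.28 and 4.73 FPKM in VO LV, 5.11, 5.21 and 6.57 FPKM in sham RV and 5.29, 7.08 and 8.58 FPKM in VO RV. Tk1 was at 19.9, 21.02 and 21.9 FPKM in sham LV, 22.7, 20.7 and 25.8 FPKM in VO LV, 18.5, 18.4 and 21.4 FPKM in sham RV and 28.4, 24.7 and 24.8 FPKM in VO RV. Dut, the highest of the 8, was at 72.1, 85.05 and 78.5 FPKM in sham LV, 79.5, 73.7 and 81.4 FPKM in VO LV, 76.6, 81.1 and 87.9 FPKM in sham RV and 91.1, 75.2 and 89.2 FPKM in VO RV. On average Dctd was lowest in VO LV and Tk1 highest in VO RV, and Dut overlapped between VO and sham in both ventricles. Tk2, the mitochondrial thymidine kinase and the lowest of the 8, was at 4.85, 6.04 and 3.66 FPKM in sham LV, 3.702, 4.67 and 3.41 FPKM in VO LV, 3.73, 4.099 and 3.41 FPKM in sham RV and 4.78, 4.53 and 4.64 FPKM in VO RV. Dck had group means of 4.25 to 5.41 FPKM.

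Of the one-carbon enzymes, Shmt1 and Mthfd1 act in the cytosol, and Shmt2 and Mthfd2 in mitochondria. Mthfd1 was at 7.28, 7.35 and 9.57 FPKM in sham LV, 10.1, 9.83 and 10.1 FPKM in VO LV, 10.1, 8.96 and 9.79 FPKM in sham RV and 9.51, 9.13 and 8.43 FPKM in VO RV. Shmt2, the highest of the 4, was at 18.7, 16.8 and 21.7 FPKM in sham LV, 22.4, 19.9 and 24.7 FPKM in VO LV, 17.8, 17.6 and 21.8 FPKM in sham RV and 20.6, 19.1 and 19.3 FPKM in VO RV. Mthfd2, the lowest, was at 3.98, 3.38 and 3.64 FPKM in sham LV, 5.19, 2.75 and 4.49 FPKM in VO LV, 3.97, 4.55 and 4.800 FPKM in sham RV and 4.89, 3.73 and 3.84 FPKM in VO RV. Mthfd1 was tightly grouped in VO LV and above all sham LV libraries, whereas Mthfd2 spread as widely within VO LV as over all groups. Shmt1 had group means of 3.92 FPKM in sham LV, 5.34 FPKM in VO LV, 4.67 FPKM in sham RV and 4.61 FPKM in VO RV.

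**Figure D3:**
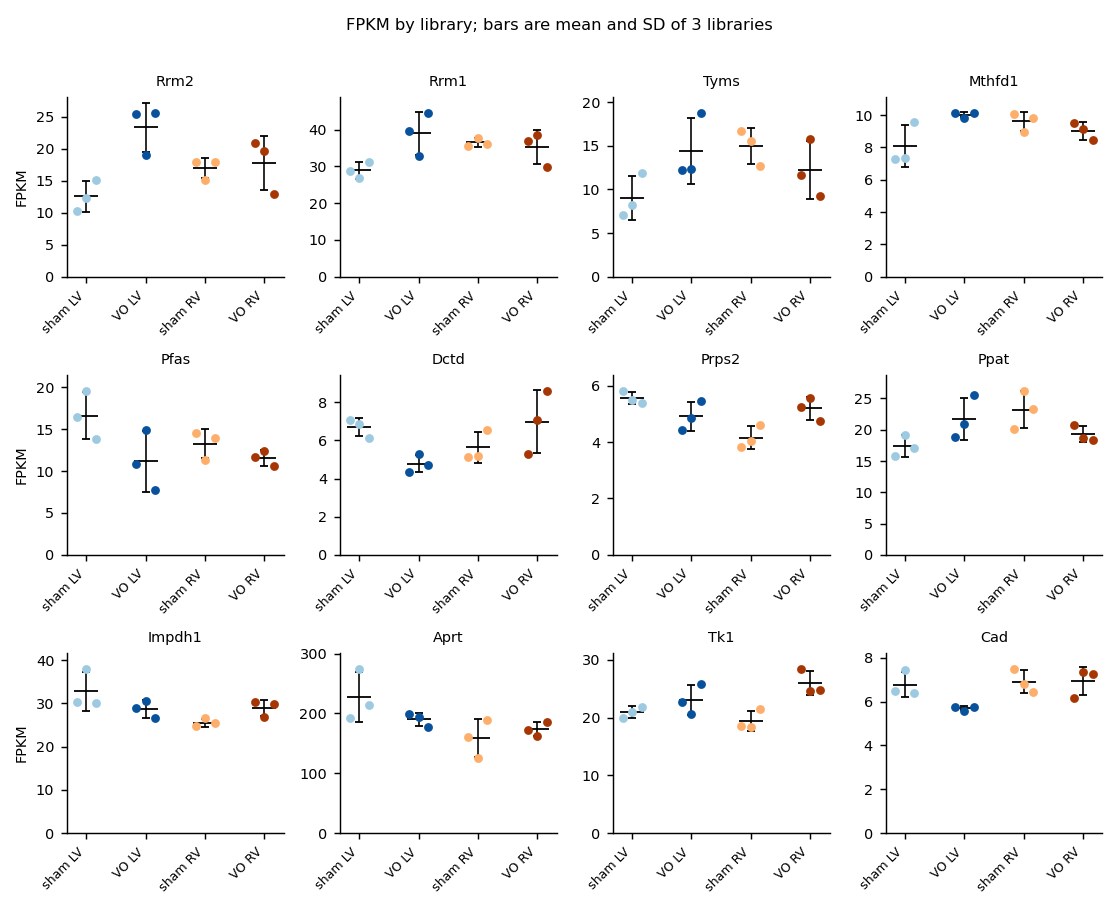
FPKM of 12 members in each library (points) by group, with the mean and SD of 3 libraries (bars); each vertical axis starts at 0. Rrm2, Rrm1, Tyms and Mthfd1 are higher in every VO LV library than in any sham LV library, Dctd and Cad are lower, and Tk1 is higher in every VO RV library than in any sham RV library.

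In VO LV against sham LV, no member passed the thresholds of a DEG (limma, adjusted p under 0.05 and fold change over 1.3, over 13910 genes), and both subunits of ribonucleotide reductase had the smallest p. Rrm2 averaged 23.4 ± 3.78 FPKM (SD, n = 3) in VO LV and 12.6 ± 2.46 FPKM in sham LV. Its log2 fold change was 0.87 ± 0.19 (standard error), with an adjusted p of 0.058. Rrm1, its partner subunit, had 0.42 (adjusted p = 0.0923), and Tyms 0.65 (adjusted p = 0.138). Among all genes, 0.0935% were DEGs (13 genes), a number that ran from 0 to 554 with 1 library left out. At an unadjusted p under 0.05 alone, 16 of 40 rows passed, where 23.4% of all tested genes did, and with a fold change over 1.3 also required, 7 were higher and 3 lower (17.5% and 7.5%), where 9.27% and 6.44% of all tested genes were. The 7 higher were Rrm2, Rrm1, Tyms, Ak4, Paics, Shmt1 and Atic, and the 3 lower were Pfas, Dctd and Nme1.

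By role, the purine ring genes had a median log2 fold change of 0.29 in VO LV against sham LV, and none of the 6 was a DEG. Paics (0.56), Atic (0.59), Ppat (0.31) and Gart (0.27) were positive, Adsl was −0.01, and Pfas, which acts between Gart and Paics, was −0.58 (standard error 0.20, adjusted p = 0.129). The 4 one-carbon enzymes were all positive, from 0.12 for Mthfd2 to 0.41 for Shmt1, with Mthfd1 at 0.31 (adjusted p = 0.132). The deoxynucleotide group had a median of 0.22, from −0.44 for Dctd (adjusted p = 0.138) to 0.87 for Rrm2. The pyrimidine ring genes lay within −0.23 to 0.21, with Cad at −0.23 and Umps at 0.05. The steps from IMP to AMP and GMP had a median of −0.02 and ran from −0.29 for Adss to 0.17 for Gmps. Over all members the median was 0.12 (25 of 40 positive), beside −0.02 over all tested genes, and was 0.07 without sham LV replicate 2 and 0.05 without VO LV replicate 3.

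In 9 member rows (8 without Hprt1) all 3 VO LV libraries were above all 3 sham LV libraries and in 4 they were below, where 16.7% and 15.7% of all tested genes showed the same; an exact permutation test of 3 against 3 libraries cannot give a p under 0.10. The uneven Y-linked transcripts move with this comparison, since no VO LV library held them, so their part and that of VO cannot be fully told apart. With their level as a covariate, the 10 members past the unadjusted p and fold became 2, and the share of all tested genes past them went from 15.7% to 9.35%. The member median was then 0.05, and Rrm2 had a log2 fold change of 0.62 (adjusted p = 0.274). Such a covariate can also cost precision, and its share in the fall was not tested. Single libraries also decided counts. Rrm2 was a DEG without VO RV replicate 3 (adjusted p = 0.0212), Rrm2 and Mthfd1 were without sham LV replicate 3, and the members past the unadjusted p and fold numbered 4 without sham LV replicate 2 (3 of them among the 10) and 5 without VO LV replicate 3 (4 of them among the 10), where 10.1% and 9.82% of all tested genes passed. The DEGs over all genes numbered 554 without VO RV replicate 3, 307 without sham LV replicate 3, 174 without VO RV replicate 1, 5 or fewer without any 1 of the sham RV libraries, and 0 without sham LV replicate 1 or 2 or any 1 of the VO LV libraries. With sham LV replicate 2 and VO RV replicate 2 both left out, 5 members were higher and 0 lower, where 11.1% of all tested genes passed, and Rrm2 had a log2 fold change of 0.86 (adjusted p = 0.173). Voom on the recovered reads called 1 member, Rrm2.

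In VO RV against sham RV, fewer members passed the unadjusted p. Tk1, the cytosolic thymidine kinase that is made in S phase, averaged 25.96 ± 2.09 FPKM (SD, n = 3) in VO RV and 19.5 ± 1.71 FPKM in sham RV. At 0.41 ± 0.10 (log2, standard error) it was the only member past the unadjusted p and fold. Its adjusted p was 0.535. Prps2 was at 0.29 (unadjusted p = 0.0219) with no overlap of the groups, Ppat at −0.25 and Impdh1 at 0.18. The 6 purine ring genes all had negative values, from −0.33 for Atic to −0.06 for Gart, and none passed the unadjusted p. No member was a DEG by limma or voom, and by limma 0% of all 13910 genes were. At an unadjusted p under 0.05, 2 members passed beside 8.4% of all genes, and with the fold 1 was higher and 0 lower, beside 1.85% and 3.06% of all tested genes. The member median was −0.05 (19 of 40 positive), beside 0.00 over all genes, and was −0.08 when VO RV replicate 1 was left out and 0.02 when VO RV replicate 3 was. Groups did not overlap in 5 member rows that were higher (4 without Hprt1) and 2 that were lower (5.64% and 6.87% of all genes).

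The count of members past the unadjusted p and fold in VO RV moved with single libraries, as did the share of all tested genes, which was 4.91% with every library. It was 0 without sham RV replicate 1 (3.42% of all genes) or sham RV replicate 2 (4.16%), and 3 without sham RV replicate 3 (6.95%). It was 2 without VO RV replicate 1 (8.36%), with Tk1 not among them, and 3 without VO RV replicate 2 (7.55%), with Tk1 among them. With VO RV replicate 2 and sham LV replicate 2 both left out it was 3, with 2 higher and 1 lower (8.26%), and with Y-linked transcripts as a covariate it was 0 (6.39%).

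**Figure D4:**
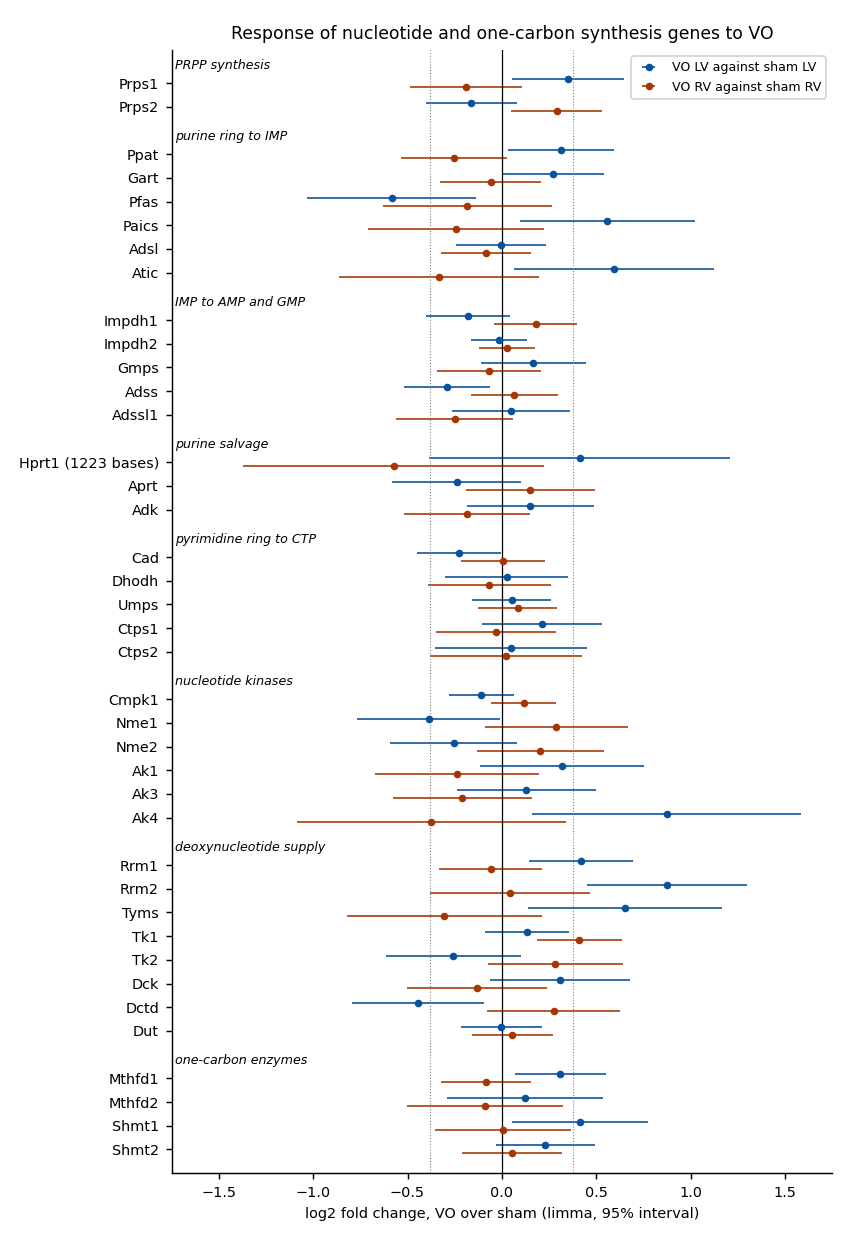
Log2 fold change of VO over sham in the LV (blue) and RV (brown) for each member, with its 95% interval from limma; dotted lines mark a fold change of 1.3 in either direction, and the Hprt1 row of 657 bases is left out because of its width. Rrm2, Tyms, Ak4, Paics and Atic are positive in the LV with intervals above 0, Pfas and Dctd are negative with intervals below 0, and most RV intervals cross 0.

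The LV and RV responses were compared directly by their difference (LV response minus RV response), a test that uses all 4 groups. No member was a DEG, beside 4.19% of all genes (583 genes). That number over all genes was 0 without sham LV replicate 1, sham LV replicate 2, sham RV replicate 1, VO LV replicate 2 or VO LV replicate 3, 4 without sham RV replicate 2, 111 without VO RV replicate 3, 240 without VO LV replicate 1, 909 without VO RV replicate 2 and 1003 without VO RV replicate 1. At an unadjusted p under 0.05, 15 members passed beside 25.5% of all genes, and with the fold 9 were positive and 4 negative, beside 13.1% and 9.94% of all tested genes. Dctd, the deaminase that makes dUMP from dCMP, had the smallest p, with a difference of −0.72 (standard error 0.23, adjusted p = 0.0864), since it was lower with VO in the LV and higher in the RV. Ppat followed at 0.57 (adjusted p = 0.0912), then Rrm2 at 0.83 (adjusted p = 0.0967) and Prps2 at −0.45 (adjusted p = 0.108). Prps1 had a difference of 0.54, opposite in sign to that of its paralog. The other positive members past the unadjusted p and fold were Tyms, Rrm1, Atic, Ak4, Paics and Mthfd1, and the other negative ones Nme1 and Tk2.

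The median difference over all members was 0.19 (24 of 40 positive), beside −0.04 over all genes, and was 0.11 without sham RV replicate 3 and 0.12 without VO LV replicate 3. Among the purine ring genes it was 0.45, among the one-carbon enzymes 0.30 and among the deoxynucleotide genes 0.19, whereas the pyrimidine ring genes had 0.02. Without sham LV replicate 2, 8 members passed the unadjusted p and fold, where the share of all genes went from 23.1% to 18.5%. A member became a DEG without sham LV replicate 3 (Mthfd1), without VO RV replicate 1 (Dctd) and without VO RV replicate 2 (Atic). With both libraries that stood apart left out, 12 members passed the unadjusted p and fold (23.6% of all genes) and the median was 0.09, and with Y-linked transcripts as a covariate 11 passed (20.3%) and the median was 0.14.

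Between the ventricles of sham rats no member was a DEG, and this comparison shares the sham LV libraries with that of VO LV against sham LV. Higher in sham LV at the unadjusted p and fold were Prps2 (0.38), Aprt (0.52), Nme1 (0.54), Nme2 (0.46), and lower were Ppat (−0.41), Tyms (−0.72), Prps1 (−0.40), Paics (−0.56), Atic (−0.55), Rrm2 (−0.44) and Ak4 (−0.71). Mean levels (± SD, n = 3) of Aprt were 227 ± 41.8 FPKM for sham LV against 159 ± 32.1 FPKM for sham RV, and those of Impdh1 32.8 ± 4.41 FPKM against 25.5 ± 0.921 FPKM. The adjusted p from limma was 0.0691 for Prps2, 0.0716 for Impdh1, 0.0754 for Aprt and 0.0858 for Ppat. Of all genes, 3.85% were DEGs (536 genes), and voom called no member. Over all genes the DEGs numbered 0 without sham RV replicate 1, 5 or fewer without sham LV replicate 1, sham LV replicate 2, sham RV replicate 2 or VO LV replicate 2, 173 without VO LV replicate 1, 185 without sham RV replicate 3 and 870 without VO RV replicate 3. The 7 lower members and the 4 higher ones, which become 5 with the unreliable shorter Hprt1 row, stand beside 9.63% and 8.19% of all genes, and 17 rows (16 without Hprt1) passed the unadjusted p alone, beside 25.7% of all genes.

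Sham LV was the group with the lowest mean for 18 of 38 members (Hprt1 left out), where it was for 31.7% of all tested genes. The median log2 difference of members was −0.09 (12 of 40 positive), beside 0.01 over all genes. Groups did not overlap in 7 member rows that were higher (6 without Hprt1) and 8 that were lower in sham LV, where 15.6% and 16.6% of all genes did so. The count at the unadjusted p and fold, 12 rows in all beside 17.8% of all genes, was 5 without sham LV replicate 2 (12.6% of all genes), 7 without sham RV replicate 1 (13.1%) and 4 without sham RV replicate 2 (15.5%), and 7 with sham LV replicate 2 and VO RV replicate 2 both left out (13.9%). Sham LV and sham RV each held 2 libraries with Y-linked transcripts, and with these as a covariate the count was 12.

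Between VO LV and VO RV, Dctd and Cad were the members past the unadjusted p. Dctd was lower in every VO LV library than in any VO RV library, with 4.79 ± 0.467 FPKM (SD, n = 3) against 6.98 ± 1.65 FPKM and a log2 difference of −0.48 (adjusted p = 0.318 from limma). Cad was likewise lower, with 5.697 ± 0.09500 FPKM against 6.93 ± 0.655 FPKM (−0.26, adjusted p = 0.383). Rrm2 at 0.40 and Ak1 at 0.33 overlapped between the ventricles. No member was a DEG by limma or voom, beside 0.00719% of all genes (1 gene), 2 members passed the unadjusted p beside 11.4% of all genes, and with the fold 0 were higher and 1 was lower, beside 3.85% and 3.56% of all genes. Groups did not overlap in 3 member rows that were higher (2 without Hprt1) and 3 that were lower (8.45% and 7.69% of all genes), and the member median was 0.06 beside 0.01 over all genes, with 0.02 without VO LV replicate 3, 0.03 without VO RV replicate 3 and 0.10 without VO LV replicate 2. The count past the unadjusted p and fold was 0 without VO RV replicate 3 (5.23% of all genes), 4 without VO RV replicate 2 (8.18%) and 2 without any other VO library (5.56% to 11.5%), and with both libraries that stood apart left out it was 4 (8.66%). Without VO RV replicate 1, 48 genes of all were DEGs.

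Ratios of 2 members within a library do not depend on the scaling of the library, and 9 such ratios were computed after the values had been seen. The groups did not overlap in 9 of the 36 results that these gave over 4 comparisons, namely in 2 of 9 ratios in VO LV against sham LV, 2 of 9 in VO RV against sham RV, 3 of 9 in sham LV against sham RV and 2 of 9 in VO LV against VO RV. Among the ratios of all 90363846 pairs of tested genes above 0 in every library, the groups did not overlap in 31.1%, 12.4%, 31.6% and 17%, and among those of all 703 pairs of members without Hprt1 in 37.1%, 15.2%, 41.7% and 11.1%. Ratios without overlap were thus frequent among pairs in general, and those below are given as descriptions. Prps2 over Prps1 was 0.473, 0.641 and 0.437 in sham LV, 0.327, 0.371 and 0.353 in VO LV, 0.2798, 0.255 and 0.327 in sham RV and 0.384, 0.473 and 0.376 in VO RV. The ratio was lower with VO in the LV, higher with VO in the RV, higher in sham LV than in sham RV and lower in VO LV than in VO RV, each without overlap of the groups. Its means were 0.517 ± 0.109 in sham LV, 0.351 ± 0.022 in VO LV, 0.287 ± 0.037 in sham RV and 0.411 ± 0.054 in VO RV (SD, n = 3). Rrm2 over Rrm1, the small over the large subunit, was 0.357, 0.459 and 0.486 in sham LV, 0.642, 0.578 and 0.575 in VO LV, 0.506, 0.401 and 0.495 in sham RV and 0.564, 0.5095 and 0.434 in VO RV. All 3 VO LV libraries were above all other libraries. Impdh1 over Impdh2 was higher in sham LV (0.562 ± 0.076) than in sham RV (0.429 ± 0.010) and higher in VO RV (0.479 ± 0.034) than in sham RV, both without overlap. Adss over Adssl1 was higher in sham LV (0.143 ± 0.026) than in sham RV (0.111 ± 0.008) without overlap and overlapped in the other comparisons. Ctps1 over Ctps2, Tk1 over Tk2, Shmt1 over Shmt2 and Paics over Ppat overlapped in each of the 4 comparisons. Nme1 over Nme2 stayed between 0.0417 and 0.0540 in all 12 libraries, with overlap in every comparison. The exact two-sided permutation p of a ratio without overlap is 0.10, the smallest that 3 against 3 libraries can give.

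**Figure D5:**
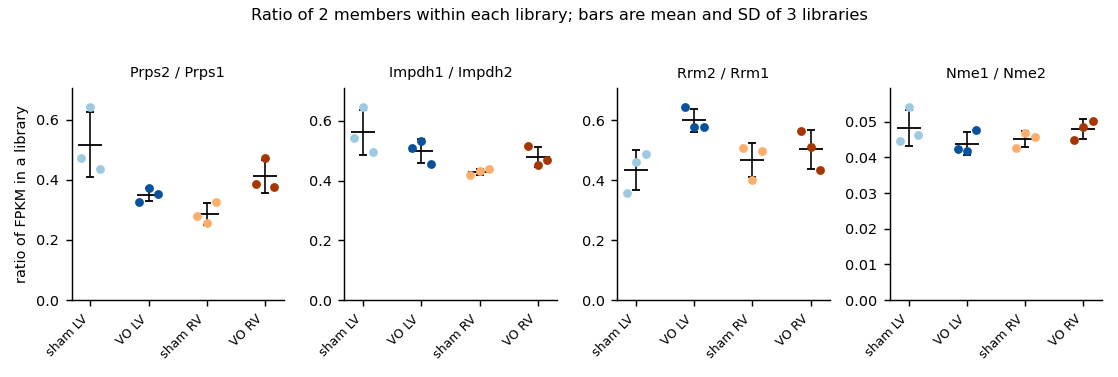
Ratio of the FPKM of 2 members within each library (points) by group, with the mean and SD of 3 libraries (bars); each vertical axis starts at 0. Prps2 over Prps1 is highest in sham LV and lowest in sham RV with the VO groups between, and Rrm2 over Rrm1 is highest in VO LV.

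Other genes of nucleotide and folate metabolism, 85 in all, gave 68 tested genes. In VO LV against sham LV, 0 were DEGs, 17 passed the unadjusted p (23.4% of all genes) and, with the fold, 3 were higher and 4 lower (9.27% and 6.44% of all genes), with a median log2 fold change of −0.03. Those with the smallest p were Nt5c1a, a cytosolic 5′-nucleotidase that releases adenosine from AMP (1.45, adjusted p = 0.073), Ampd3, an AMP deaminase (0.51, adjusted p = 0.0812), and Cmpk2, a mitochondrial kinase of pyrimidine nucleotides (−0.42, adjusted p = 0.103). In VO RV against sham RV, 0 were DEGs, 7 passed the unadjusted p (8.4% of all genes) and, with the fold, 3 were higher and 0 lower (1.85% and 3.06% of all genes), among them Nudt1, which clears oxidized nucleotides (0.50), and Nme7 (0.40), a relative of Nme1 that was named after its values were seen. Between VO LV and VO RV, 0 were DEGs, 8 passed the unadjusted p (11.4% of all genes) and, with the fold, 1 was higher and 4 lower (3.85% and 3.56% of all genes), led by Phgdh, the first enzyme of serine synthesis (−1.15, adjusted p = 0.25). Phgdh was at 6.003, 4.04 and 6.27 FPKM in VO LV and 8.71, 21.00 and 10.6 FPKM in VO RV, so VO RV replicate 2, the library with high atrial markers, was by far the highest.

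Between sham LV and sham RV, 4 of the 68 were DEGs (5.88%, beside 3.85% of all genes), 3 higher and 1 lower in the LV. Ampd3 was at 4.597, 4.19 and 5.03 FPKM in sham LV and 9.04, 9.72 and 7.64 FPKM in sham RV (log2 difference −0.86, standard error 0.14, adjusted p = 0.0319). Cmpk2 was at 3.71, 4.16 and 3.25 FPKM in sham LV and 2.22, 2.49 and 1.95 FPKM in sham RV (0.63, adjusted p = 0.0364). Pnp, the purine nucleoside phosphorylase that frees bases for salvage or breakdown, was at 70.9, 74.4 and 73.2 FPKM in sham LV and 49.7, 47.9 and 54.3 FPKM in sham RV (0.52, adjusted p = 0.042). Ada, the adenosine deaminase, was the remaining DEG and was named after its values were seen, with a difference of 0.57 (adjusted p = 0.0498). All 4 were without overlap between the groups. Of 25 alternatives, Ampd3 was a DEG in 17, Cmpk2 in 14, Pnp in 13 and Ada in 8. None of these 4 was a DEG without sham RV replicate 1, where their adjusted p ran from 0.121 to 0.174. Likewise, none was a DEG with the replicate block, where their adjusted p ran from 0.0741 to 0.0808 and DEGs over all genes fell from 536 to 3. In the difference of the responses 1 of the 68 was a DEG (1.47%, beside 4.19% of all genes), Nt5c1a, and with the unadjusted p and fold 6 were positive and 12 negative, beside 13.1% and 9.94% of all genes. With the replicate block Nt5c1a was no longer a DEG (adjusted p = 0.0842).

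Cell division genes bear on the demand for DNA precursors, and 32 of 33 listed genes of S phase and mitosis were tested. In VO LV against sham LV, 0 were DEGs, 4 passed the unadjusted p (23.4% of all genes) and, with the fold, 2 were higher and 0 lower (9.27% and 6.44% of all genes), namely Ccnb1 (0.46, adjusted p = 0.103) and the DNA ligase Lig1 (0.42, adjusted p = 0.119). The 19 S phase genes had a median of −0.03 with 8 positive, and the 13 mitosis genes one of 0.14 with 11 positive. In VO RV against sham RV, 0 were DEGs, 5 passed the unadjusted p (8.4% of all genes) and, with the fold, 1 was higher and 0 lower (1.85% and 3.06% of all genes), namely Cdk1 (0.44, adjusted p = 0.535). The 5 that passed the unadjusted p were all mitosis genes. The 13 mitosis genes had a median of 0.29 with all 13 positive, and the 19 S phase genes one of 0.11 with 15 positive, beside 0.00 over all genes. In the difference of the responses, the 32 genes had a median of −0.11, beside −0.04 over all genes.

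Summed markers of the cell types in the free wall parted some groups, as many single genes did. Of all tested genes, 16.7% were higher and 15.7% lower without overlap in VO LV against sham LV. These shares were 15.6% and 16.6% in sham LV against sham RV and 5.64% and 6.87% in VO RV against sham RV. Between VO LV and VO RV they were 8.45% and 7.69%, so the separations below are given as descriptions. The 8 fibroblast markers, all present, summed to 2594 to 2789 FPKM in sham LV, 2063 to 2543 FPKM in VO LV, 2770 to 3640 FPKM in sham RV and 2533 to 4935 FPKM in VO RV, so VO LV lay below sham LV without overlap. The 7 endothelial markers present of 8 listed summed to 498 to 549 FPKM in sham LV, 393 to 437 FPKM in VO LV, 348 to 383 FPKM in sham RV and 360.3 to 455 FPKM in VO RV, with sham LV above the other groups. The 10 ventricular cardiomyocyte markers present of 11 summed to 26673 to 28721 FPKM in sham LV, 27935 to 30922 FPKM in VO LV, 23873 to 27701 FPKM in sham RV and 19463 to 28007 FPKM in VO RV. Red blood cell markers, 5 of 10 present, summed to 13332 to 17264 FPKM in sham LV, 8642 to 13743 FPKM in VO LV, 6750 to 11319 FPKM in sham RV and 6698 to 15103 FPKM in VO RV, with sham LV above sham RV without overlap. Skeletal muscle markers, 3 of 8 of them under 0.1 FPKM on average, summed to 2648 to 3277 FPKM in VO LV and 1509 to 2046 FPKM in VO RV, without overlap. Such a sum follows the most abundant markers of its list, and the amount of skeletal muscle was not measured. Smooth muscle and pericyte markers summed to 467 to 628 FPKM in sham LV and 405 to 448 FPKM in sham RV, and lymphocyte markers to 10.5 to 11.4 FPKM and 7.998 to 10.2 FPKM, both without overlap. Epicardial markers summed to 20.3 to 26.6 FPKM in sham LV and 26.7 to 34.5 FPKM in sham RV, also without overlap. Macrophage and leukocyte markers summed to 209.5 to 235 FPKM in sham LV and 153 to 210.5 FPKM in sham RV, with overlap, and to 204 to 242 FPKM in VO LV and 211 to 232 FPKM in VO RV, so VO RV lay above sham RV without overlap. No marker of any list was at 0 in all libraries. Ttn and Pecam1 were not among the gene names. The part of these cell types in the differences of the members was not tested.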

How the data were processed

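RNA sequencing libraries from LV and RV free walls were grouped by their labels into 4 groups of 3. Values were deposited as FPKM per gene, computed by the authors from reads counted on genes. The submitters' processing notes name HISAT2 2.0.5, StringTie 1.3.3b, featureCounts 1.5.0-p3, DESeq2 1.20.0 and GATK 3.7. The genome build and the strand setting of the counting are not given in the sources used here. All value columns were mapped to samples (0 unmapped).

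FPKM times gene length gave whole reads for 100% of values under 200 reads (tolerance 0.02), with 14121713 to 16871371 reads per library. FPKM values were divided by median-ratio size factors, which ran from 0.996 to 1.002 and so changed the values little. Log2(value + 0.5) of 13910 genes with a mean of at least 0.5 FPKM was then fitted for all 4 groups in 1 model with limma 3.58.1 (R 4.3.3, trended variance). Fold changes on this scale understate those of genes at low level. P-values were adjusted by Benjamini-Hochberg over all tested genes. DEGs were genes past both an adjusted p of 0.05 and a change of 1.3-fold. As the file holds no counts, a count model was not the main test, and voom on the recovered reads was an alternative. Intervals of values across genes come from limma.

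Alternatives were other scalings, pseudocounts, filters, library weights, a replicate block, voom, the 6 compared libraries alone, and each library left out. Removal of a gene length trend, leaving out both libraries that stood apart, and a covariate for Y-linked transcripts (Eif2s3y, Ddx3y, Kdm5d, Uty) were chosen after seeing the data. The members and all lists were chosen with earlier results of these data known. Values in every library are given for the 4 members with the smallest unadjusted p in each comparison and for the highest and lowest member of each role, and for Tyms, which was added after its values were seen. Up to 3 other pathway genes per comparison are named by their p. RefSeq promoters (GRCr8) were matched by symbol, synonym or gene ID. A few single genes of the other lists are not reported here.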

Additional observations from a re-analysis of the deposited data

Results flagged for a closer look

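Nt5c1a, a cytosolic 5′-nucleotidase that acts on AMP and is not among the 39 synthesis genes, responded to VO differently in the LV and the RV by the test of the difference itself (2.15 on the log2 scale, standard error 0.54, limma, adjusted p = 0.0492). Its values were 0.809, 1.58 and 0.422 FPKM in sham LV, 2.35, 3.35 and 4.16 FPKM in VO LV, 4.43, 1.60 and 1.72 FPKM in sham RV and 1.42, 1.71 and 0.757 FPKM in VO RV. The VO LV libraries were all above the sham LV libraries, whereas VO RV and sham RV overlapped. The difference ran from 1.74 to 2.83 over 24 alternatives, with an adjusted p of 0.0378 to 0.130, and passed the thresholds in 7 of them. The adjusted p was highest without VO LV replicate 3. With the replicate block it was 0.0842, and DEGs over all genes in this difference fell from 583 to 1.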

How the results depend on the processing

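The count of DEGs among the members was 0 in each of 5 comparisons and stayed at 0 in 115 of 124 alternative results. In VO RV against sham RV no alternative made more than 1 gene of all a DEG. Between VO LV and VO RV it was 48 genes without VO RV replicate 1 and 2 or fewer otherwise. A count of 0 members in these comparisons was thus nearly fixed in advance and says little about the members. In VO LV against sham LV the count of members was 2 with array weights (Ak4, Rrm2) and 1 with voom (Rrm2), and ran from 0 to 2 with 1 library left out. In sham LV against sham RV it was 6 with array weights (Aprt, Nme1, Nme2, Ppat, Prps2 and Tyms). In the difference of the responses it was 1 with array weights (Ak4) and ran from 0 to 1 with 1 library left out. The cause was not tested. Over all genes, DEGs in VO LV against sham LV, 13 as reported, numbered 704 with array weights, 341 with voom and 0 with the Y-linked covariate. Those in sham LV against sham RV, 536 as reported, numbered 1321 with array weights, 8 with all genes above 0 tested and 5 with both libraries that stood apart left out. In the difference of the responses, 583 as reported, the same settings gave 1045, 21 and 11, and the Y-linked covariate gave 176.

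The median log2 fold change of the members moved by no more than its spread between libraries in 114 of 124 alternative results. With 1 library left out it ran from 0.0508 to 0.1423 in VO LV against sham LV, from −0.0826 to 0.0174 in VO RV against sham RV and from 0.1057 to 0.2507 in the difference of the responses. With Y-linked transcripts as a covariate it was 0.0479 in VO LV and −0.0956 in VO RV. It was −0.1369 in sham LV against sham RV with the gene length trend removed. In the difference it was 0.128 with array weights and 0.0934 with sham LV replicate 2 and VO RV replicate 2 both left out.

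No single named member changed direction in the alternatives run, and 9 of 496 such results passed the adjusted p where the reported one did not. Rrm2 in VO LV ran from 0.62 to 1.01, with an adjusted p from 0.0212 to 0.274. Groups share replicate numbers, but the labels do not say what a shared number marks. Y-linked transcripts were present or near 0 alike in the LV and RV libraries of all 3 sham numbers and of VO numbers 1 and 2, whereas VO number 3 had 0 FPKM in the LV and 56.0 FPKM in the RV, so that this pair was not from 1 rat. Correlations of same-numbered deviations ran from −0.218 to 0.123 and were all positive in sham LV against sham RV (0.0446, 0.0377 and 0.123), and 4 of 6, 0 of 6, 4 of 6 and 1 of 6 libraries were nearest to their own number in VO LV against sham LV, VO RV against sham RV, sham LV against sham RV and VO LV against VO RV. With the replicate block, members called stayed at 0 in each comparison, and DEGs over all genes were 3 in VO LV against sham LV, 0 in VO RV against sham RV, 3 in sham LV against sham RV, 2 in VO LV against VO RV and 1 in the difference of the responses, where the fit without it gave 13, 0, 536, 1 and 583. With 3 libraries per group, low genes such as Ak4 rest on as few as 8 reads.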
